A study of Mus musculus with 6 samples.

Results

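The genes described here encode enzymes that make heme: Alas1, Alas2, Alad, Uros, Urod, Cpox, Ppox and Fech. They were taken by symbol from the deposited tables, and each of the 8 had a single row with status OK in all 6 libraries, out of 23746 gene rows in all. Bone marrow came from C57BL/6 mice of 12 weeks that were wild type, Diap1 +/- or Diap1 -/-, called WT, Het and KO. Diap1 encodes the formin mDia1, which builds actin filaments; the part of the gene that was disrupted is not given in the sources used here. Marrow of 4 mice per genotype was pooled, and each pool gave a Gr1+Mac1+ fraction of myeloid cells, selected with magnetic beads, and a Lin- fraction of progenitors, obtained by depleting the cells that were left. Each of the 6 groups is 1 library, so differences between genotypes have no replicate check.

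Heme is built from glycine and succinyl-CoA in a chain of enzymes that starts in the mitochondrion, passes through the cytosol and ends in the mitochondrion, where iron is inserted. Most heme in the body is made by developing red cells for hemoglobin, and smaller amounts are made in all cells for cytochromes and other enzymes. The entry step has a form present in all tissues, encoded by Alas1, and a form of red cell precursors, encoded by Alas2. The 8 genes cover 7 of the 8 steps, and the third step is not analysed here.

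Values are FPKM, fragments per kilobase of transcript scaled to library size, so levels can be compared between genes. Each value comes with a deposited lower and upper bound, read here as a 95% interval, which covers counting error and not the spread between mice. By the width of those bounds the libraries held an implied 8630000 to 11600000 fragments. Diap1 itself had, for WT, Het and KO, an FPKM of 36.0, 24.2 and 6.07 among Lin- libraries and of 57.1, 34.1 and 4.07 among Gr1+Mac1+ libraries. Itgam, which encodes the Mac1 alpha chain, was at 293 to 311 in the Gr1+Mac1+ and at 0.640 to 16.9 in the Lin- libraries. The 11 neutrophil markers summed to 65.6 in the WT, 8006 in the Het and 79.2 in the KO Lin- library, so the Het Lin- library stands apart from the other Lin- libraries, and they summed to 135639 to 163787 in the Gr1+Mac1+ libraries. The 8 progenitor markers summed to 248 to 297 in Lin- and 102 to 112 in Gr1+Mac1+ libraries. Both fractions held red cell genes: the 17 erythroid markers summed to 3905 to 4137 in Lin- libraries and to 833 in WT, 554 in Het and 456 in KO Gr1+Mac1+ cells, with no marker at 0 in any library.

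Promoter windows of Alas1, Alas2, Uros and Cpox are shown first. Those printed for Alas2, Uros and Cpox are the windows that hold a match to the GATA motif described below. The choice of those windows thus follows the letters and carries no link to the levels in the fractions. The window printed for Alas1 was not chosen this way: it holds no GATA match, and the second window of Alas1 is not printed. RefSeq promoter windows (GRCm38.p6, the assembly that mm10 names) were taken for 7 of the 8 genes, and Fech was left out of this step. The 250 bases before the start are printed 5′ to 3′ on the gene's strand. Capitals mark matches, on either strand, to the GATA motif (AGATAA, its variant TGATAA, or either of them with G as the last letter) or to a CACCC-type motif (CCNCNCCC); matches may overlap each other. These are the motif types bound by GATA factors and by Krüppel-like factors.
Alas1 (chr9:106247955-106248204, minus strand): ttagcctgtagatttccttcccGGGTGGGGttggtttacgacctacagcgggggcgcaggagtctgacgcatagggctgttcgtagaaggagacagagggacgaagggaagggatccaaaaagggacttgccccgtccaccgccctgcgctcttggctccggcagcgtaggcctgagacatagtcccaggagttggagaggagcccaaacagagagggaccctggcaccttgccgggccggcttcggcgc
Alas2 (chrX:150547167-150547416, plus strand): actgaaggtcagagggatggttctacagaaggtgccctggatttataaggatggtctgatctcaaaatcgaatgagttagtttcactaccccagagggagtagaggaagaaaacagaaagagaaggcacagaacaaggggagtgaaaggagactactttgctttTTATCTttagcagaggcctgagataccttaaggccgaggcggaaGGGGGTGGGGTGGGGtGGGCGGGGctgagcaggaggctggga
Uros, inner start (chr7:133702501-133702750, minus strand): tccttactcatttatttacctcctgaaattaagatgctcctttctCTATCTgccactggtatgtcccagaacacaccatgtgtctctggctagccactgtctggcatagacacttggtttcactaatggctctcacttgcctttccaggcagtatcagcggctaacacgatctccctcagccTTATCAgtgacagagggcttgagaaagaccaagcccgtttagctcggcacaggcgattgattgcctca
Cpox (chr16:58669958-58670207, plus strand): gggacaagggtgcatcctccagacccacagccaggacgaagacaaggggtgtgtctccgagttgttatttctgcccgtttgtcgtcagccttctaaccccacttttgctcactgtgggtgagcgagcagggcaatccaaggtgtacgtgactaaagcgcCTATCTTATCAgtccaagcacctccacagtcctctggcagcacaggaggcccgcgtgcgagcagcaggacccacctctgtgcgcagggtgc

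The 7 genes have 10 windows, since Alas1, Alad and Uros have a second start each. A GATA motif stood in 3 of the 10 (30%), those of Alas2, Cpox and the inner start of Uros, beside 26.5% of the 32851 promoter windows of this length, so the share is near that of all windows. In Alas2 the match TTATCT starts 86 bases before the start site and stands upstream of 4 CACCC-type matches, which begin 42, 40, 35 and 26 bases before it and of which the first 3 overlap. Cpox held 2 overlapping GATA matches, CTATCT and TTATCA, beginning 91 and 86 bases before its start, a number of matches that 6.4% of all windows reached. The starts of Uros in RefSeq lie 6795 bases apart. The outer start, which matches the end of the locus in the files, held no GATA match, and the inner start held 2, beginning 205 and 68 bases before it. CACCC-type matches stood in 6 of the 10 windows (60%), those of Alas2, both of Alas1, both of Alad and the outer one of Uros, and in 45.9% of all windows. The windows of Urod and Ppox held neither motif. A match is a description of letters and shows no binding.

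The fractions differed in a way that split the pathway at its entry. Both enzymes of the entry step, Alas1 and Alas2, were higher in Gr1+Mac1+ cells, and the 6 genes of the later steps were higher in Lin- cells. All 8 passed an adjusted p of 0.05 in a limma fit that blocks on the pool. The split of 6 and 2 was the same without the Het or the WT pool, and was 5 and 2, by the loss of Ppox, without the KO pool and after rescaling by the median ratio. Among 11489 genes tested over the whole table, 51.6% passed as higher in Lin- cells and 30.4% as higher in Gr1+Mac1+ cells. Passing this test is thus common in these data, and the direction and size are what tell the genes apart. Over all genes the median log2 ratio lay 0.33 toward Lin-. In the rescaled fit, 4205 genes were called toward Lin- and 4746 toward Gr1+Mac1+ cells, in place of 5931 and 3491. The erythroid and neutrophil marker sums given above also differ between the fractions, and in bulk cells fewer cells of a type and less RNA per cell cannot be told apart.

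Alas1 (chromosome 9, 106233455 to 106247954, mm10) encodes the 5-aminolevulinate synthase of all tissues, the rate-limiting enzyme of the pathway outside red cells. Among Lin- libraries, WT had an FPKM of 11.9 (10.7 to 13.1), Het one of 12.0 (10.8 to 13.2) and KO one of 10.2 (9.05 to 11.3). Among Gr1+Mac1+ libraries, WT had 53.7 (51.4 to 56.1), Het 62.9 (60.2 to 65.6) and KO 63.0 (60.0 to 66.0). The Gr1+Mac1+ libraries were all higher than the Lin- libraries, by 4.51-fold to 6.17-fold within a pool. The log2 ratio of Lin- to Gr1+Mac1+ was -2.30 (limma SE 0.10, adjusted p = 0.000114, same direction in 3 of 3 pools).

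Alas2 (chromosome X, 150547417 to 150570622) encodes the erythroid form of the same enzyme, and its deficiency in people causes sideroblastic anemia. The Lin- library of WT had an FPKM of 18.7 (16.9 to 20.6), that of Het 16.8 (15.0 to 18.5) and that of KO 36.4 (32.8 to 40.0). The Gr1+Mac1+ library of WT had 124 (119 to 129), that of Het 94.5 (88.9 to 100.006) and that of KO 90.3 (84.4 to 96.2). The fractions did not overlap, with Gr1+Mac1+ cells higher by 6.60-fold in WT, 5.64-fold in Het and 2.48-fold in KO. The log2 ratio was -2.12 (limma SE 0.29, adjusted p = 0.00215), with the largest SE of the 8 genes. With the fragments implied by the bounds in place of FPKM, described further on, the ratios within a pool were 5.27-fold in WT, 3.06-fold in Het and 2.497-fold in KO, so which pool lies apart depends on that choice. Erythroid genes as a list went the other way: 13 of 17 erythroid markers were called toward Lin- and 1 toward Gr1+Mac1+ cells, beside 51.6% and 30.4% of all genes. That marker was Slc4a1, the anion exchanger band 3 of the red cell membrane, singled out here after its values were seen, at 25.0, 36.5 and 29.9 among Lin- and 162, 118 and 87.0 among Gr1+Mac1+ libraries of WT, Het and KO. The adult globins ran the same way as Alas2, with Hbb-b1 at -1.98 and Beta-s at -2.16 on the log2 scale (limma, adjusted p = 0.00884 and 0.00371); these globin genes have near-identical copies and their levels are uncertain.

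**Figure D1:**
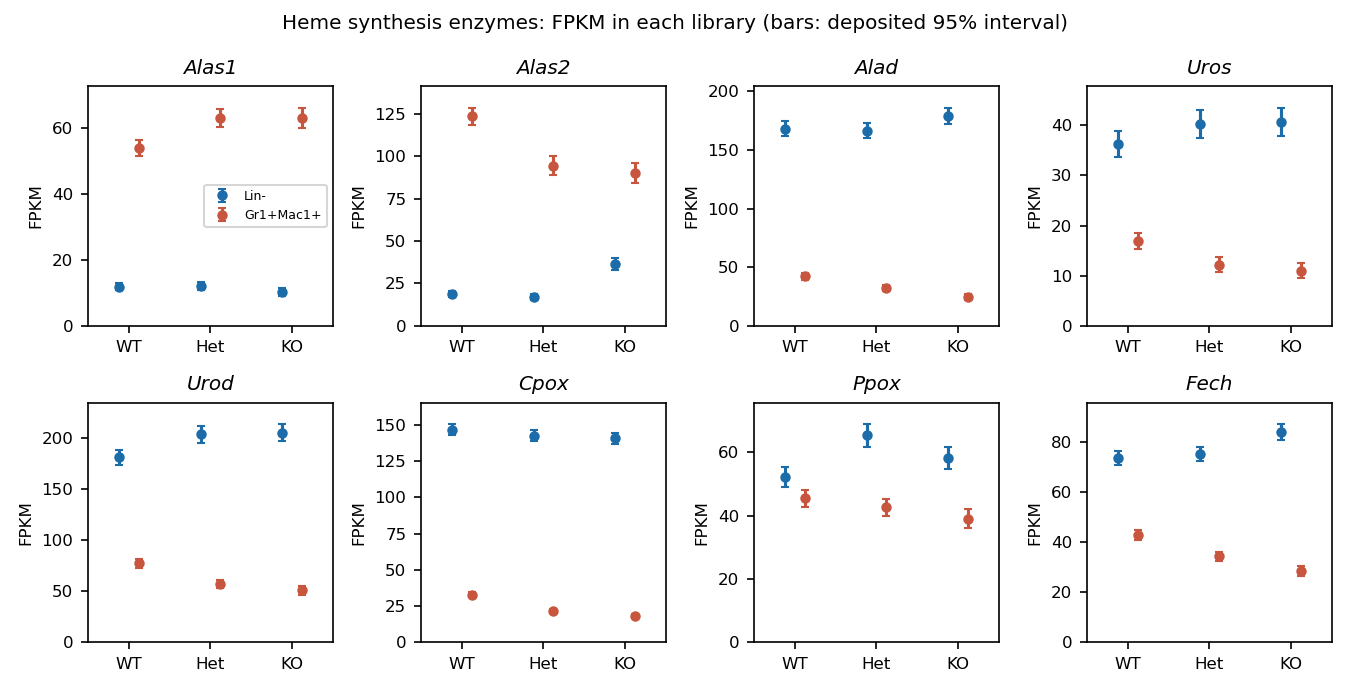
FPKM of each heme synthesis gene (vertical axes, from 0) by genotype (horizontal axes) in Lin- (blue) and Gr1+Mac1+ (red) libraries; points are single libraries and bars the deposited interval. Alas1 and Alas2 are higher in every Gr1+Mac1+ library, and the other 6 genes are higher in every Lin- library.

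The cytosolic steps that follow were all higher in Lin- cells. Alad (chromosome 4, 62509170 to 62520063) encodes the dehydratase that joins pairs of aminolevulinate molecules into porphobilinogen, the enzyme that lead inhibits. For WT, Het and KO its FPKM was 168 (161 to 175), 166 (160 to 173) and 179 (172 to 186) among Lin- libraries, and 42.2 (39.1 to 45.3), 32.3 (29.5 to 35.2) and 24.7 (21.98 to 27.5) among Gr1+Mac1+ libraries. The Lin- libraries lay close together and far above the others, with a log2 ratio of 2.37 (limma SE 0.17, adjusted p = 0.00029).

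Uros (chromosome 7, 133686330 to 133709295) encodes uroporphyrinogen III synthase, which closes the ring; its deficiency is congenital erythropoietic porphyria. The Lin- libraries of WT, Het and KO had an FPKM of 36.2 (33.6 to 38.8), 40.2 (37.5 to 43.0) and 40.6 (37.8 to 43.5), and the Gr1+Mac1+ libraries had 17.0 (15.3 to 18.6), 12.2 (10.7 to 13.7) and 11.0 (9.46 to 12.6). It had the lowest level of the 8 genes in each Gr1+Mac1+ library. The log2 ratio was 1.496 (limma SE 0.16, adjusted p = 0.001).

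Urod (chromosome 4, 116990217 to 116994375) encodes the decarboxylase that turns uroporphyrinogen into coproporphyrinogen. Its FPKM over WT, Het and KO was 181 (174 to 188), 203 (195 to 211) and 205 (197 to 213) among Lin- libraries, the highest level of the 8 genes in each. Among Gr1+Mac1+ libraries it was 77.2 (72.7 to 81.7), 56.8 (52.7 to 60.9) and 50.8 (46.5 to 55.0), with no overlap between fractions and a log2 ratio of 1.68 (limma SE 0.17, adjusted p = 0.00074).

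The last enzymes act in mitochondria, and their differences between the fractions ran from the largest to the smallest of the 6 later genes. Cpox (chromosome 16, 58670208 to 58680389), the coproporphyrinogen oxidase, had an FPKM of 147 (143 to 150.3), 143 (139 to 146) and 141 (137 to 144) in the Lin- libraries of WT, Het and KO. The Gr1+Mac1+ libraries in the same order had 32.8 (31.1 to 34.5), 21.9 (20.4 to 23.4) and 18.3 (16.8 to 19.8). Its log2 ratio of 2.55 (limma SE 0.16, adjusted p = 0.0002) was the largest toward Lin- cells among the 8 genes.

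Ppox (chromosome 1, 171276992 to 171281186) encodes protoporphyrinogen oxidase, which is impaired in variegate porphyria. From WT through Het to KO, the Lin- libraries had an FPKM of 52.1 (49.0 to 55.2), 65.2 (61.7 to 68.7) and 58.2 (54.8 to 61.6), and the Gr1+Mac1+ libraries 45.4 (42.7 to 48.1), 42.5 (39.8 to 45.3) and 39.0 (36.1 to 41.9). The groups did not overlap but lay close, with a log2 ratio of 0.46 (limma SE 0.10, adjusted p = 0.0128) that is only 0.12 above the median of all genes. This call was lost after rescaling by the median ratio (log2 ratio 0.03, limma adjusted p = 0.823), without the filter on low values (adjusted p = 0.0813) and without the KO pool (0.40, adjusted p = 0.0578).

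Fech (chromosome 18, 64456550 to 64489066) encodes ferrochelatase, which inserts iron into protoporphyrin. With genotypes again ordered WT, Het, KO, its FPKM was 73.6 (70.7 to 76.4), 75.0 (72.0 to 77.9) and 83.7 (80.5 to 86.8) among Lin- libraries and 42.8 (40.7 to 44.8), 34.3 (32.3 to 36.2) and 28.4 (26.4 to 30.3) among Gr1+Mac1+ libraries. The log2 ratio was 1.13 (limma SE 0.16, adjusted p = 0.00229). Set against that all-gene median of 0.33, the differences toward Lin- cells were 2.03 for Alad, 1.16 for Uros, 1.34 for Urod, 2.22 for Cpox, 0.12 for Ppox and 0.80 for Fech, and those of Alas1 and Alas2 were -2.63 and -2.46.

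**Figure D2:**
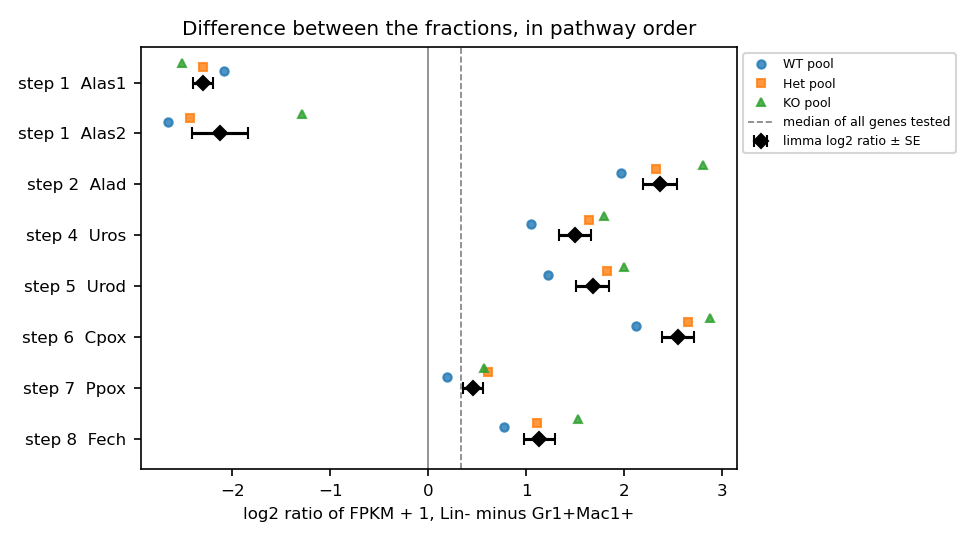
Log2 ratio of FPKM + 1 between the fractions (horizontal axis, Lin- minus Gr1+Mac1+) for each gene in pathway order; diamonds with bars are limma estimates ± SE over 3 pools, colored marks are the single pools, and the dashed line is the median of all genes at 0.33. Alas1 and Alas2 lie below 0 in every pool and the other genes above 0, and the Alas2 values from FPKM are -2.66 in WT, -2.43 in Het and -1.29 in KO.

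The order of levels along the pathway was the same in the 3 Lin- libraries and another in the Gr1+Mac1+ libraries. In Lin- cells the order from high to low was Urod, Alad, Cpox, Fech, Ppox, Uros, Alas2 and Alas1 in all 3 genotypes, and the highest gene exceeded the lowest by 15.2-fold in WT, 17.0-fold in Het and 20.1-fold in KO. Neighbors in this order whose intervals overlapped were Urod and Alad in WT, and Uros and Alas2 in KO. In Gr1+Mac1+ cells Alas2 was highest by FPKM and Uros lowest in all 3 genotypes, with a span of 7.29-fold to 8.20-fold. This rank of Alas2 and the span rest on its FPKM and carry the limit on its bounds given below. Relative to WT Lin-, its implied fragments per FPKM were 0.798 in WT, 0.554 in Het and 0.555 in KO Gr1+Mac1+ cells. Its place in the order with implied fragments was not computed. Urod and Alas1 differed in order between genotypes there: Urod was above Alas1 in WT, their intervals overlapped in Het, and Alas1 was above Urod in KO. Fech and Alad overlapped in all 3 Gr1+Mac1+ libraries, as did Ppox and Fech in WT.

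Alas1 and Alas2 encode enzymes of the same reaction, so the transcript levels of both genes, which are not shares of enzyme activity, can be set side by side. Their summed FPKM over WT, Het and KO was 30.6, 28.7 and 46.6 among Lin- libraries and 177, 157 and 153 among Gr1+Mac1+ libraries. The Alas2 to Alas1 ratio of WT, Het and KO was 1.57 (95% counting interval 1.37 to 1.81), 1.40 (1.21 to 1.62) and 3.56 (3.07 to 4.14) among Lin- libraries. Among Gr1+Mac1+ libraries it was 2.30 (2.17 to 2.44), 1.502 (1.40 to 1.62) and 1.43 (1.32 to 1.55). The ratio was thus highest in KO among Lin- libraries and highest in WT among Gr1+Mac1+ libraries; the values carry the limit on Alas2 given below.

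**Figure D3:**
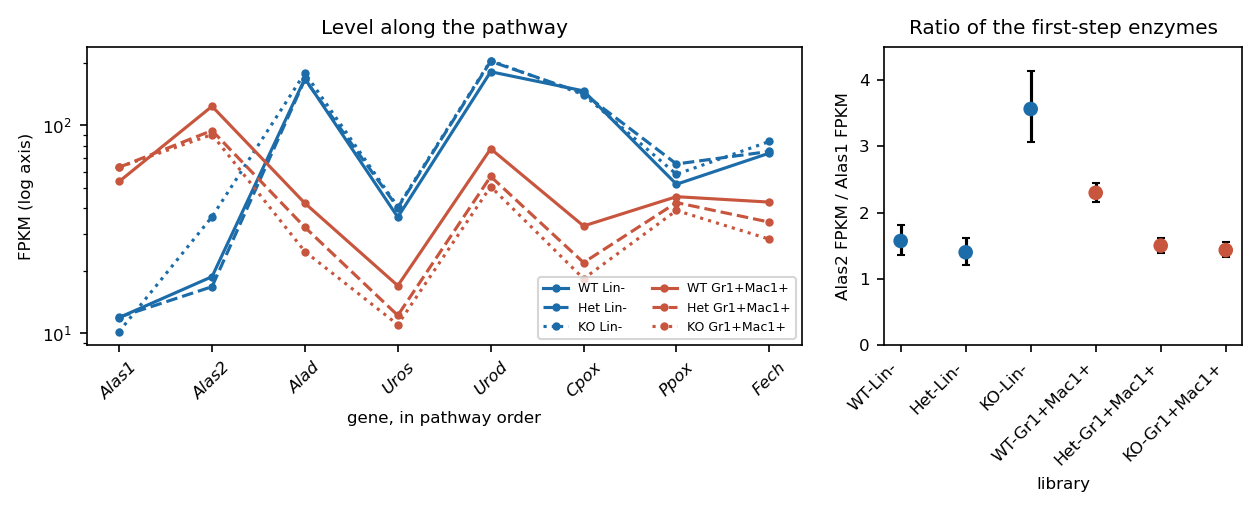
Left, FPKM (log axis) of the 8 genes in pathway order in each library, Lin- in blue and Gr1+Mac1+ in red. Right, ratio of Alas2 to Alas1 FPKM per library with its 95% counting interval: KO Lin- is highest at 3.56 and the Het and KO Gr1+Mac1+ libraries are near 1.5.

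Among Gr1+Mac1+ libraries, 7 of the 8 genes were lower in KO than in WT with intervals that did not overlap, and Alas1 was higher. Of 11270 genes tested, 5.57% were lower and 5.25% higher by that criterion; among genes with a mean FPKM of at least 10 the shares were 6.53% and 7.97%. The KO level was 55.8% of WT for Cpox, 58.6% for Alad, 64.9% for Uros, 65.8% for Urod, 66.3% for Fech, 73.1% for Alas2 and 85.8% for Ppox. Alas1 stood at 117% of WT. The log2 ratios ran from -0.81 (counting SE 0.07) for Cpox to 0.23 (0.05) for Alas1, with a median of -0.58 beside 0.01 for all genes. None of the 8 passed the size rule of 2-fold on the log2(FPKM + 1) scale with an FPKM of at least 5, which 0.0976% of genes passed as lower and 0.0444% as higher.

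The erythroid markers moved with these genes. All 17 were lower in KO than in WT Gr1+Mac1+ cells, beside 48.1% of all genes, and 16 of them had intervals apart, beside 5.57%. Their median log2 ratio was -0.89, further from 0 than the ratio of each heme gene from FPKM. With implied fragments, described further on, Alas2 was at -0.98. Among the 17 markers were Rhag, a membrane protein of the Rh complex, at -1.04, the carbonic anhydrases Car1 at -0.78 and Car2 at -0.94, Rhd at -0.92 and the adhesion molecule Ermap at -0.92. Of 8 erythroid transcription factors 7 were lower, beside 48.1% of all genes, and 4 had intervals apart, beside 5.57%. Those 4 included Klf1 (FPKM 17.2 in WT, 7.61 in KO) and Gata1 (19.9, 11.4). The most abundant factors, Lmo2 at a log2 ratio of -0.20 and Ldb1 at -0.09, had overlapping intervals. Klf1 and Rhag passed the size rule, and Nfe2 had a log2 ratio of 0.04. Summed neutrophil markers were 145004 in WT and 163787 in KO, and summed monocyte and macrophage markers 351 and 402. The part of red cell precursors in the values of the heme genes was not tested.

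Het against WT Gr1+Mac1+ cells used the same WT library. Here 6 genes were lower with intervals apart, beside 8.49% of 11274 genes, and Alas1 was higher, beside 8.27%. The Het level was 66.7% of WT for Cpox, 71.9% for Uros, 73.6% for Urod, 76.5% for Alas2, 76.6% for Alad and 80.1% for Fech. Ppox was at 93.7%, with overlapping intervals, and Alas1 at 117%. The median log2 ratio was -0.38 beside -0.000728 for all genes, and that of the erythroid markers -0.53. Of those markers 17 of 17 were negative, beside 50.1% of all genes. None of the 8 passed the size rule, which 0.0976% of genes passed as lower and 0.0355% as higher.

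Between KO and Het Gr1+Mac1+ cells, Alad, Cpox and Fech were lower in KO with intervals apart, beside 9.13% of 11270 genes, and none was higher, beside 9.46%. Alad had a log2 ratio of -0.37 (counting SE 0.10), Fech -0.26 (0.06) and Cpox -0.25 (0.07). Alas1 was at 0.00 (interval -0.09 to 0.09) and Alas2 at -0.06 (-0.19 to 0.06), so neither differed beyond counting error. No member passed the size rule, which 0.071% passed as lower and 0.0621% as higher.

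**Figure D4:**
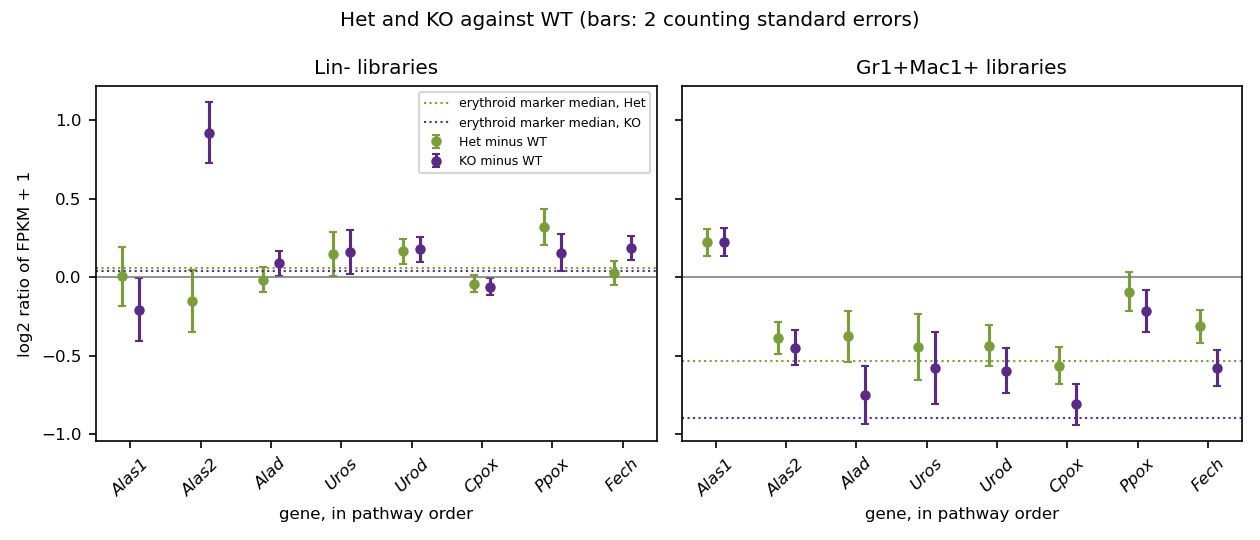
Log2 ratio of FPKM + 1 of Het and KO to WT for each gene in pathway order, in Lin- (left) and Gr1+Mac1+ (right) libraries; bars are 2 counting standard errors and dotted lines the median of the erythroid markers. In Gr1+Mac1+ cells all genes but Alas1 lie below 0, and in Lin- cells Alas2 in KO is at 0.92 from FPKM (0.10 with implied fragments, not drawn).

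In Lin- cells, the FPKM of Alas2 in KO stood at 194% of WT with a log2 ratio of 0.92 (counting SE 0.10), just under the 2-fold of the size rule. With the fragments implied by its bounds in place of FPKM, explained below, the log2 ratio was 0.10 and the intervals overlapped. Urod at 113% and Fech at 114% of WT also had intervals apart, so 3 of 8 genes were higher, beside 6.16% of 10952 genes (2 of 8 with implied fragments), and none was lower, beside 7.38%. The deposited intervals of the other 5 overlapped, with log2 ratios of -0.21 for Alas1, -0.06 for Cpox, 0.09 for Alad and 0.16 for both Uros and Ppox. The median over the 8 genes was 0.16 beside 0.00331 for all genes, and that of the erythroid markers 0.04. No member passed the size rule, which 0.137% of genes passed as higher and 0.0365% as lower. The adult globins Hbb-b1, Hbb-b2 and Beta-s did pass it as higher, Beta-s from 1041 to 2377.

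Against the same WT library, Het Lin- cells had Alas2 at 89.5% of WT with overlapping intervals. Ppox, at 125% of WT (log2 ratio 0.32, counting SE 0.06), and Urod, at 112%, were higher with intervals apart, beside 8.41% of 10956 genes, and none was lower, beside 6.2%. No member passed the size rule (1.3% of genes higher, 0.0639% lower). This library carried the neutrophil markers given above, and their part in the values was not tested. Against Het, the KO Lin- library had Alas2 higher by a log2 ratio of 1.07 (counting SE 0.10), past the size rule that 0.0913% of genes passed as higher and 1.16% as lower. That call was lost with a pseudocount of 5 (0.93), with 3-fold in place of 2-fold, and with implied fragments (0.23), where the intervals overlapped too. Fech was also higher with intervals apart, beside 3.57% of 10953 genes, and Ppox lower, beside 7.4%.

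The bounds of Alas2 limit these ratios. The number of fragments implied by a gene's bounds, divided by its FPKM, should follow library depth. Scaled to depth and set to 1 in WT Lin-, it was 0.9998 to 1.0005 for the other 7 genes in all libraries. For Alas2 it was 1.02 in Het Lin-, 0.552 in KO Lin-, 0.798 in WT Gr1+Mac1+, 0.554 in Het Gr1+Mac1+ and 0.555 in KO Gr1+Mac1+. The bounds imply 416, 366 and 407 fragments for the WT, Het and KO Lin- libraries and 2483, 1164 and 930 for the Gr1+Mac1+ libraries. With implied fragments in place of FPKM, a setting chosen after seeing the data, the log2 ratio of KO to WT was 0.10 among Lin- and -0.98 among Gr1+Mac1+ libraries, and that of Het to WT in Gr1+Mac1+ cells was -0.91. A change beyond 1.5-fold in this quantity between KO and WT Lin- libraries was found in 2.92% of 6477 genes with an FPKM of at least 5 in every library. Whether the bounds or the FPKM of Alas2 carry the change was not tested. The higher level in Gr1+Mac1+ cells held in that setting, at -1.77 (limma adjusted p = 0.0015). Alas2 is X-linked, and the pools also differed in Xist, at 54.2, 34.9 and 38.7 among WT, Het and KO Lin- libraries and 27.1, 18.0 and 19.9 among Gr1+Mac1+ libraries; its part was not tested.

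**Figure D5:**
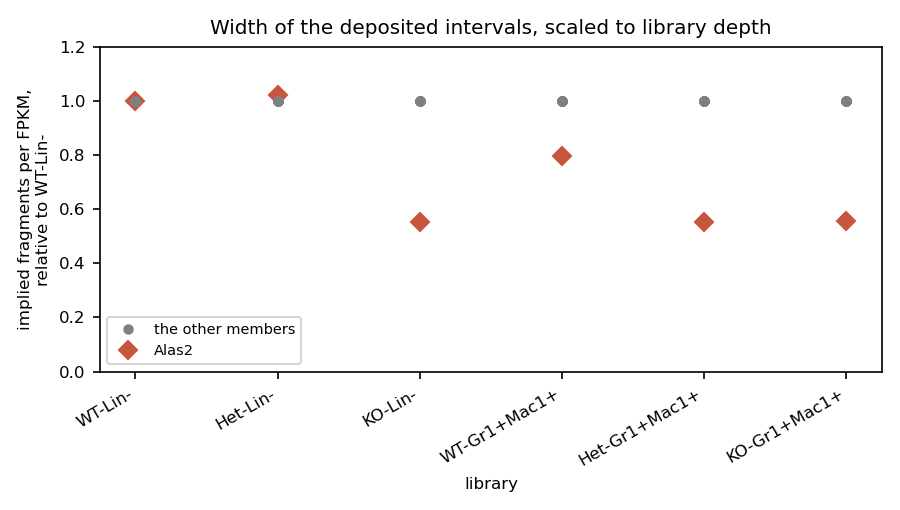
Implied fragments per FPKM, scaled to library depth and relative to WT Lin- (vertical axis), for Alas2 (red diamonds) and the other 7 genes (grey points) in each library. The grey points lie at 1 in all libraries, and Alas2 lies near 0.55 in KO Lin-, Het Gr1+Mac1+ and KO Gr1+Mac1+.

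The genes that supply the pathway mostly followed its later steps. Of 16 genes for mitochondrial supply and transport, limma called 13 toward Lin- and 3 toward Gr1+Mac1+ cells, beside 51.6% and 30.4% of all genes, with a median log2 ratio of 0.98 beside 0.33. Tmem14c, a carrier of porphyrin intermediates into mitochondria, was at 362 to 396 among Lin- and 109 to 133 among Gr1+Mac1+ libraries. Tspo2, the erythroid translocator protein, had a log2 ratio of 2.68 and Suclg1, a subunit of the enzyme that forms succinyl-CoA, of 1.12 (limma, adjusted p = 0.000354 and 0.000494), and the widely expressed Tspo one of -1.23 (adjusted p = 0.000209). Slc25a37 at -0.82 and Slc25a28 at -0.30 (limma, adjusted p = 0.0248 and 0.00955), named here to complete the 3, were also called toward Gr1+Mac1+ cells. In KO against WT Gr1+Mac1+ cells, 13 of the 16 were negative, beside 48.1% of all genes, and 6 were lower with intervals apart, beside 5.57%. None passed the size rule, and Tspo2 stood at -0.97.

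Iron-sulfur clusters are made in the same organelle, and mammalian ferrochelatase carries such a cluster. Of 11 genes of cluster assembly and iron regulation, 10 were called toward Lin- and 1, the scaffold Iscu at -0.17, toward Gr1+Mac1+ cells (limma, adjusted p = 0.0457), beside 51.6% and 30.4% of all genes, with a list median of 1.64. Glrx5, a glutaredoxin of cluster transfer that red cell precursors need, was at 175 to 189 in Lin- and at 55.4 in WT, 42.7 in Het and 39.6 in KO Gr1+Mac1+ cells; Isca1 and Isca2 had log2 ratios of 1.17 and 0.62 (adjusted p = 0.000597 and 0.00345). In KO against WT Gr1+Mac1+ cells 9 of 11 were negative, beside 48.1% of all genes, and 2 of them had intervals apart, beside 5.57%.

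Of 10 genes of heme export, breakdown and sensing, 7 were called toward Lin- and 3 toward Gr1+Mac1+ cells, close to the 51.6% and 30.4% of all genes, with a median of 0.48 beside 0.33. Blvrb, a flavin and biliverdin reductase abundant in red cells, was at 294 to 344 in Lin- and at 76.0, 60.2 and 48.7 in WT, Het and KO Gr1+Mac1+ cells. The heme-binding Hebp1 had a log2 ratio of 2.29, the heme transporter Slc48a1 of 0.62 and Eif2ak1, the kinase that slows translation when heme is short, of 0.34, close to the median of all genes (limma, adjusted p = 0.000428, 0.000733 and 0.0133). Hmox1, the inducible heme oxygenase, singled out after its values were seen, was at 0.643, 3.84 and 0.764 in the WT, Het and KO Lin- libraries and at 46.3, 63.9 and 60.1 in their Gr1+Mac1+ counterparts. Like Alas1 it was lowest in WT among the Gr1+Mac1+ libraries.

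Patterns over the 6 libraries were compared on log2(FPKM + 1) among 8599 other genes with a mean FPKM of at least 5. The genes most like Alas2 by Pearson's r were Ap1s3, the globin transcript Beta-s, Cast, Higd2a and Kctd2, with r from 0.998 to 0.992, and 4.17% of genes reached 0.95. Those most like Alas1 were Sik1, Actb, Lrrfip2, Ifngr2 and Tle3, with r from 0.9996 to 0.9992, and 23.2% of genes reached 0.95. Ppox had the fewest, 1.09%, and Cpox the most, 40.8%. With 6 points that share 2 fractions and 3 pools, these values describe shape only and carry no test. The ranking for Alas2 rests on its FPKM and carries the limit on its bounds given above.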

How the data were processed

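Deposited tables give FPKM by gene with bounds and a status, per the file headers. The submitters' processing notes name TopHat2 2.0.7, Cufflinks 2.0.2 and mm10; what each did and which gene models were used is not given in the sources used here. From the FPKM as the authors deposited them, log2(FPKM + 1) was fitted with limma 3.58.1 (R 4.3.3, trend, Benjamini-Hochberg adjustment). The fit took 11489 genes with status OK and mean FPKM of at least 1. A check on simulated data came first, and those data held no differences between pools. Pool was a block, since the labels' protocols take both fractions from the same mice. Each pool is a genotype, which leaves 2 residual degrees of freedom that include its interaction with fraction. The p-values are moderated: each gene's spread over the 3 pools is drawn toward a trend fitted over all genes tested.

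Genotypes were compared without a test, by whether bounds overlap and by the size rule (with bounds apart and status OK in both libraries). Shares of all genes use a mean FPKM of at least 1 over that fraction. Counting SEs take the upper bound as 2 SD above the value, and implied fragments are the squared ratio of value to SD. Members, lists and rules were chosen with earlier results of these data known. Named genes are the 8 members, up to 4 of the most abundant of each related list, list genes past the size rule, and the 5 most like Alas1 and Alas2; others are marked. Of 111 list symbols, 107 matched 1 row, 6 by an older symbol; Ahsp, Ly6g, Hba-a1 and Hba-a2 were not used here. Alternatives were other pseudocounts, filters, folds and scaling, no block, no trend and leaving out each pool.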

Additional observations from a re-analysis of the deposited data

Results flagged for a closer look

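Some genes went in opposite directions in the 2 fractions under the same contrast, with deposited intervals apart in both; with 1 library a group, these differences were not tested. In KO against WT this held for Alas2, Urod and Fech, and for 144 of 10254 genes tested in both fractions (1.4%). The log2 ratio in Lin- minus that in Gr1+Mac1+ cells was 1.37 for Alas2, 0.77 for Urod and 0.76 for Fech, with the Lin- ratio positive and the Gr1+Mac1+ ratio negative in each. For Alas2 the Lin- ratio is 0.10 with implied fragments in place of FPKM. In Het against WT it held for Urod, with a difference of 0.60 (2.34% of genes tested), and in KO against Het for Fech, with a difference of 0.42 (2.41%).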

How the results depend on the processing

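The counts of 6 genes toward Lin- and 2 toward Gr1+Mac1+ cells were the same with pseudocounts of 0.1 and 5, mean FPKM of at least 5, no trend and no replicate block for the pool. The 6 became 5, by the loss of Ppox, without the filter on low values, after rescaling and without the KO pool; over the 3 fits that leave out a pool they were 5 to 6, and the 2 stayed 2. Over these fits the log2 ratio ran from -2.54 to -1.86 for Alas2 and from 0.38 to 0.59 for Ppox, whose call was lost as given in the report. With 1.5-fold in place of 2-fold, 1 member passed as higher in KO against WT Lin- and 3 as lower in KO against WT Gr1+Mac1+ cells, in place of 0. The share of all genes passing at 1.5-fold was not computed, so whether these counts are unusual cannot be said. The 1 member past the size rule in KO against Het Lin- cells, Alas2, became 0 with a pseudocount of 5, with 3-fold and with implied fragments in place of FPKM; in the last setting, 1 member in place of 2 was higher with intervals apart, and Alas2 had a log2 ratio of 0.23. The other tested settings left each genotype count within 1.5 times its value. Precision is limited by 1 library per group and by counts: the bounds imply 201 (Uros, KO Gr1+Mac1+) to 5940 (Cpox, WT Lin-) fragments per value.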
